A study of Mus musculus with 6 samples.

Results

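Glycosyltransferases and sulfotransferases of the Golgi build the sugar coat of the cell surface, and 75 genes of 8 of their families were followed in mouse uterine luminal epithelium with and without Foxo1. The genes were chosen by symbol out of 24964 genes in the expression table, with earlier results of these data known. They begin with Galnt, B3gnt, B4galt, B3galt, St3gal, St6gal, Fut or Chst followed by a digit, or with Galntl or St6galnac. The 75 genes fall into 18 Galnt, 8 B3gnt, 7 B4galt, 5 B3galt, 6 St3gal, 8 St6gal (with St6galnac), 9 Fut and 14 Chst genes. All but the pseudogene Fut4-ps1 are annotated as protein coding.

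Expression was measured by RNA-seq in 3 samples each of 2 genotypes. The Foxo1dd samples came from Pgrcre/+Foxo1f/f females, in which a Cre gene placed at 1 copy of Pgr, the progesterone receptor gene, acts on floxed Foxo1 alleles. The Foxo1ff samples came from Foxo1f/f females, which carry the same floxed alleles and no Cre. All females were housed to 8 weeks of age, mated with stud males and dissected on pregnancy day 4, and the luminal epithelium was taken by laser capture. Cre at Pgr is active wherever the receptor is made, also in uterine stroma and muscle, and it changes 1 Pgr allele as well. The labels call the samples bioreplicates and say no more of the animals, so the p-values cover only the variation among these 6 libraries, part of which may be technical.

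These enzymes work in order along a glycan. Galnt enzymes start mucin-type O-glycans by adding N-acetylgalactosamine (GalNAc) to serine or threonine, and B3gnt, B4galt and B3galt enzymes lengthen chains with N-acetylglucosamine (GlcNAc) and galactose. Sialyltransferases (St3gal, St6gal, St6galnac) and fucosyltransferases (Fut) cap the chains, and Chst enzymes add sulfate. The apical glycans of the luminal epithelium are the first surface that the embryo meets, and fucosylated and sialylated chains there are known to change with ovarian hormones.

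The values are FPKM, which scale the reads of a gene by its length and by the size of the library, so levels of different genes can be compared. Summed FPKM was 552190 to 564628 in Foxo1dd and 613186 to 667499 in Foxo1ff. From the steps between low values of short RNA genes, 1 read of a 2 kb gene was worth 0.0059 to 0.0068 FPKM in Foxo1dd and 0.0051 to 0.0061 FPKM in Foxo1ff, with the Foxo1dd 2 value resting on 26 genes. Foxo1 itself had 1.72, 0.942 and 1.22 FPKM in Foxo1dd, against 160.0, 118.5 and 110.8 FPKM in Foxo1ff, and Pgr, which holds the Cre insertion, had 36.2, 29.9 and 28.3 FPKM in Foxo1dd, against 2.44, 1.64 and 2.02 FPKM in Foxo1ff. Foxo1dd 2 stood apart, with 13995 genes above 0 against 15474 to 16062 in the other samples, and with the ribosomal RNA gene Rn45s at 40296 FPKM, against 30479 and 30721 FPKM in the other Foxo1dd samples and 23715 to 31304 FPKM in Foxo1ff. Of 7 gland markers, the summed level was 1.04 to 6.54 FPKM in Foxo1dd and 51.8 to 209.8 FPKM in Foxo1ff, with Ttr at 0 throughout, 1 of 4 tested higher and 3 lower. Of 14 leukocyte markers 2 rose and 8 fell, at 82.5 to 97.6 FPKM summed in Foxo1dd and 55.6 to 104.3 FPKM in Foxo1ff. The 12 stroma markers summed to 42.6 to 59.0 FPKM in Foxo1dd and 37.3 to 43.7 FPKM in Foxo1ff, 3 of them rose, and the 11 luminal and pan-epithelial markers summed to 4357 to 5215 FPKM in Foxo1dd and 2893 to 3881 FPKM in Foxo1ff. The 6 smooth muscle and 9 endothelial markers stayed below 7 FPKM in sum in every sample. The part of these cell markers in the results below was not tested, and in bulk samples fewer cells of a type and less RNA per cell cannot be told apart.

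Most families held members that moved in opposite directions: 17 of the transferases rose, 16 fell and 12 were not called. A gene was tested if its mean over the 6 samples was at least 1 FPKM, which 45 of the 75 passed, and was called at a limma adjusted p under 0.05 over all 11427 genes tested. Foxo1 deletion went with a broad change, since 56.4% of all tested genes were called, 22.2% higher and 34.2% lower, against 73.3% of the 45 transferases, 37.8% higher and 35.6% lower. Calls of at least 1 log2 were made for 14 transferases higher and 9 lower, beside 11.1% and 15.8% of all tested genes. Foxo1dd and Foxo1ff values were fully separated for 34 of the 45, or 75.6%, beside 64.2% of all tested genes. The median log2 change was -0.14 for the transferases and -0.15 for all tested genes, and the median size of change regardless of sign was 1.03 and 0.53. These shares describe the genes that passed the minimum, in families chosen with earlier results of these data known. Of the 45, 9 passed through the level of a single genotype and so had to differ. These were B3gnt5, B3gnt8, St3gal5, St6gal1, St6galnac5 and Chst2 through Foxo1dd and Galnt6, Chst9 and Chst13 through Foxo1ff.

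**Figure D1:**
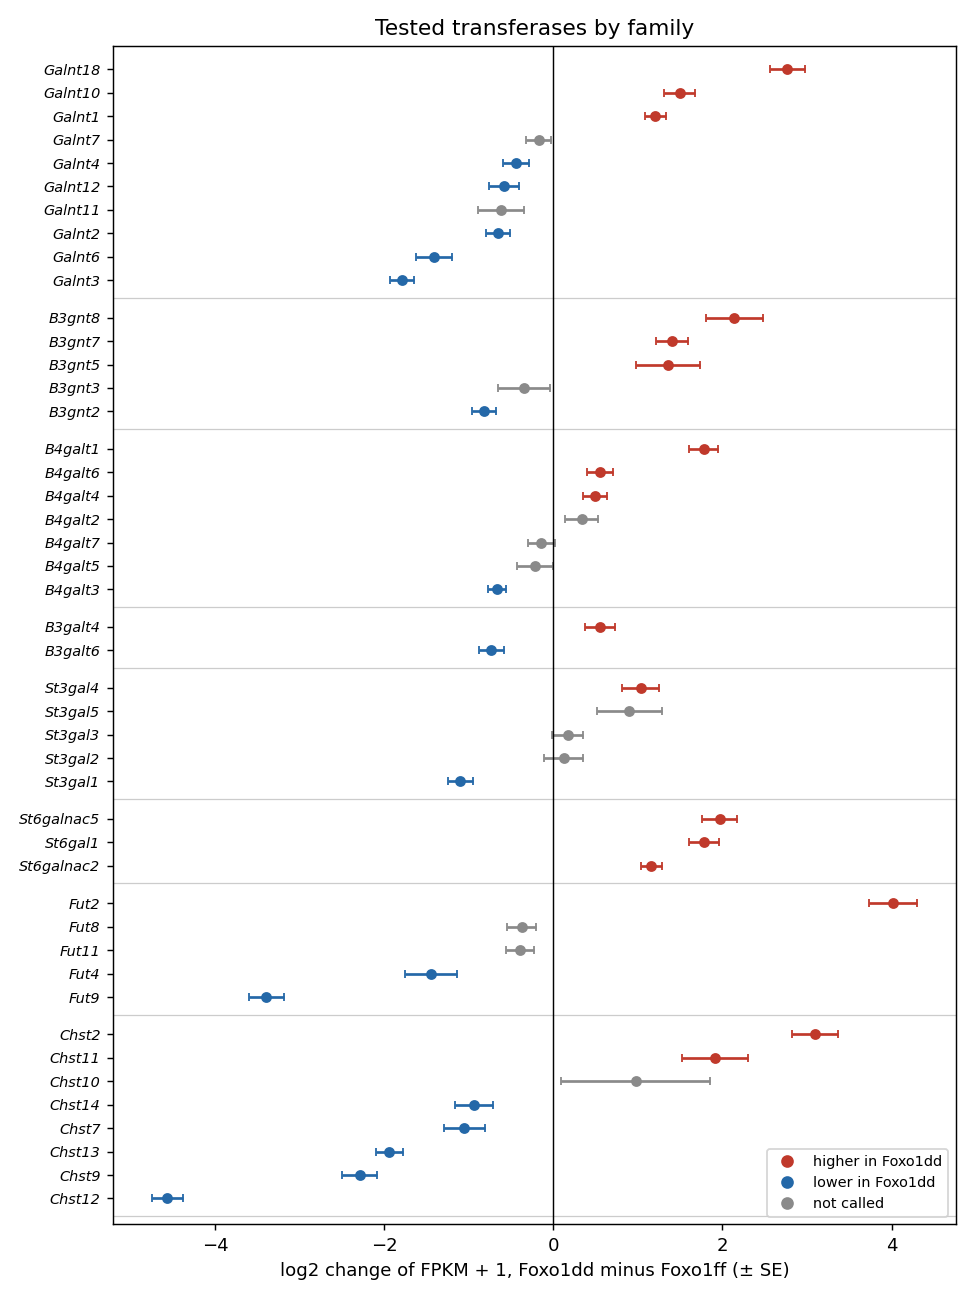
Log2 change of FPKM + 1 (x axis, Foxo1dd minus Foxo1ff) of the 45 tested transferases, grouped by family; points are limma estimates, bars are SE, and colours give the call. Every family has members on both sides of 0 except St6gal, whose 3 tested members lie to the right.

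Promoter sequences are shown for the carbohydrate sulfotransferases Chst12 and Chst2, which had the largest fall and the largest rise among called members in the RefSeq promoter table (GRCm38.p6). That table holds 57 of the 75 genes, without Fut2, Fut9 and Galnt18. Each run is the 250 bases before the transcript start of that table, 5′ to 3′ on the gene's strand, at chr5:140505359-140505608 (plus) and chr9:95407271-95407520 (minus). GENCODE places these starts elsewhere. Its Chst12 gene begins at 140505550, inside the window shown, and its Chst2 gene starts at 95406722, so the Chst2 window does not adjoin it. Capitals mark the GC box GGGCGG and the CCAAT box CCAAT, each on either strand.
Chst12: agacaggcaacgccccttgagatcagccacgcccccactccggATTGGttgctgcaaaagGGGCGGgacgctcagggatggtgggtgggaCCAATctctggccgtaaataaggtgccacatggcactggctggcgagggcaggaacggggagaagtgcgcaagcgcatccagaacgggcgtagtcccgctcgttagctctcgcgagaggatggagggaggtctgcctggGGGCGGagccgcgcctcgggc
Chst2: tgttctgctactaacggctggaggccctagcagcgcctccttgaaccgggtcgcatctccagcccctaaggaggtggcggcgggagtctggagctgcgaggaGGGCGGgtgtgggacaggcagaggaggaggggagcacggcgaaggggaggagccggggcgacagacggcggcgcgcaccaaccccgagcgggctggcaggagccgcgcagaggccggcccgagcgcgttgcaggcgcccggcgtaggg
The Chst12 window holds 2 GC boxes and 2 CCAAT boxes at 65.6% G + C, and the Chst2 window holds 1 GC box and no CCAAT box at 72.8% G + C. The 24 windows of called members cover 21 of the 33 called genes, and 17 hold a GC box and 8 a CCAAT box. That is 70.8% and 33.3%, against 32.7% and 33.8% of all 32851 windows, which also cover genes that were not tested. Of all 73 windows of the 57 genes, 54.8% hold a GC box and 28.8% a CCAAT box, and their median G + C was 61.2%, against 52.4% for all windows. The forkhead motif GTAAACA, searched on both strands and overlapping neither box, was in 0 of these 24 windows and in 3.17% of all windows. A match is a description of the letters, and its absence from this window says nothing of binding by Foxo1.

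Among the enzymes that start O-glycans, 3 Galnt genes rose and 5 fell of the 10 tested, with a family median log2 change of -0.51. Galnt18, a member of a divergent Galnt subfamily, had 24.4, 28 and 18.4 FPKM in Foxo1dd, against 2.95, 1.82 and 3.09 FPKM in Foxo1ff. Its log2 change was 2.76 ± 0.21 (SE, n = 3 per group, limma adjusted p = 7.47e-06), a 9.01-fold higher mean. All 3 Foxo1dd samples lay far above the Foxo1ff range. Galnt1, a broadly expressed starter enzyme on chromosome 18 (24205344 to 24286818, mm10), had 87.5, 79.6 and 102.4 FPKM in Foxo1dd, against 38.1, 39.6 and 36.9 FPKM in Foxo1ff (log2 change 1.21 ± 0.13, adjusted p = 4.80e-05). Galnt10, which prefers peptides that already carry GalNAc, had 12.5, 11.3 and 17.1 FPKM in Foxo1dd, against 4.78, 3.80 and 3.84 FPKM in Foxo1ff (1.49 ± 0.18, adjusted p = 0.000130). The groups of both genes were apart.

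Galnt3 and Galnt6, close relatives in sequence that act on mucins, both fell. Galnt6 reached the minimum only through Foxo1ff, so its direction was favoured by the filter. Galnt3 had 10.4, 8.32 and 7.83 FPKM in Foxo1dd, against 32.1, 34.9 and 31.9 FPKM in Foxo1ff, a log2 change of -1.79 ± 0.14 (adjusted p = 9.58e-06). Galnt6 had 0.463, 0.975 and 1.22 FPKM in Foxo1dd, against 3.25, 4.14 and 4.52 FPKM in Foxo1ff (-1.41 ± 0.21, adjusted p = 0.000489). Neither overlapped between groups. Smaller falls were called for Galnt2 (-0.66 ± 0.14, adjusted p = 0.00394), Galnt12 (-0.58 ± 0.18, adjusted p = 0.0226) and Galnt4 (-0.44 ± 0.15, adjusted p = 0.0370). The Galnt4 and Galnt12 calls were weak. Galnt4 lost its call under median-of-ratios scaling, quantile normalization, with no minimum and with any sample but Foxo1dd 1 left out (adjusted p 0.0258 to 0.118 over its alternatives), and Galnt12 with no minimum and without Foxo1dd 2, Foxo1ff 1 or Foxo1ff 2 (0.0171 to 0.104).

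Galnt11, which in other vertebrate tissues is known to glycosylate Notch and the endocytic receptor megalin, was the most abundant member over the 6 samples. It had 92.8, 70.0 and 105.1 FPKM in Foxo1dd, against 192.9, 87.1 and 148.3 FPKM in Foxo1ff, with overlapping groups (log2 change -0.62 ± 0.27, adjusted p = 0.0796). Without Foxo1ff 2, its lowest Foxo1ff sample, it passed with -0.93 (adjusted p = 0.00622, range over its alternatives 0.00622 to 0.254). Galnt7, another enzyme that follows on earlier GalNAc, had 18.1 ± 3.03 FPKM in Foxo1dd and 20.3 ± 0.781 FPKM in Foxo1ff (SD, n = 3 each; adjusted p = 0.354). Galnt1 thus made up 31.0% ± 1.28 of the summed Galnt FPKM in Foxo1dd, against 12.4% ± 2.19 in Foxo1ff, while Galnt11 made up 30.7% ± 3.38 in Foxo1dd, against 44.3% ± 10.6 in Foxo1ff (SD, n = 3 each). The family sums were 289 ± 27.5 FPKM in Foxo1dd and 315 ± 48.6 FPKM in Foxo1ff. The remaining 8 members, Galnt5, Galnt9, Galnt13, Galnt14, Galnt15, Galnt16, Galntl5 and Galntl6, lay below the minimum, and Galnt9, Galnt13 and Galnt14 were listed at 0 in all samples.

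**Figure D2:**
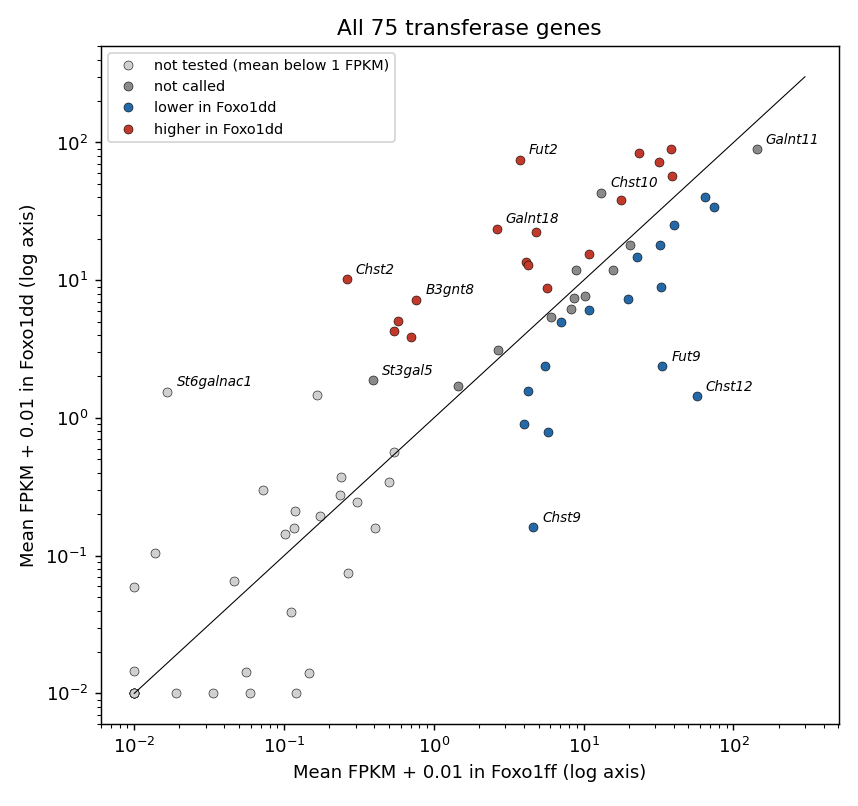
Mean FPKM + 0.01 (log axes) of all 75 transferase genes in Foxo1dd (y axis) and Foxo1ff (x axis), n = 3 samples per mean, coloured by call; the line marks equal levels. Fut2, Chst2 and Galnt18 lie far above the line, Chst12, Fut9 and Chst9 far below it, and 30 genes lay under the minimum of 1 FPKM.

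Of the 5 tested B3gnt genes, which add GlcNAc and extend poly-N-acetyllactosamine, 3 rose and 1 fell, and of those that rose B3gnt5 and B3gnt8 reached the minimum only through Foxo1dd, so their direction was favoured by the filter. B3gnt2, the main poly-N-acetyllactosamine synthase and the most abundant member, had 19.8, 15 and 19.3 FPKM in Foxo1dd, against 30.7, 33.6 and 33.1 FPKM in Foxo1ff (-0.82 ± 0.14, adjusted p = 0.000940). B3gnt8, which in humans is known to work with B3gnt2 on branched N-glycans, had 9.33, 3.30 and 8.98 FPKM in Foxo1dd, against 0.523, 0.565 and 1.18 FPKM in Foxo1ff (2.14 ± 0.34, adjusted p = 0.000583). B3gnt2 and B3gnt8 therefore changed in opposite directions, with no overlap between groups for either. B3gnt7, linked to keratan sulfate chains, had 11.2, 16.6 and 11.1 FPKM in Foxo1dd, against 4.80, 3.78 and 4.06 FPKM in Foxo1ff (1.40 ± 0.19, adjusted p = 0.000218). B3gnt5, which starts lacto-series glycolipids, had 1.57, 2.79 and 7.31 FPKM in Foxo1dd, against 0.529, 0.807 and 0.744 FPKM in Foxo1ff (1.36 ± 0.37, adjusted p = 0.0127). The size of the B3gnt5 rise leaned on Foxo1dd 3, without which it was 0.88. B3gnt3, an O-glycan extender, overlapped between groups at 6.13 ± 2.36 FPKM in Foxo1dd and 8.20 ± 3.12 FPKM in Foxo1ff (SD, n = 3 each; adjusted p = 0.363). B3gnt4, B3gnt6 and B3gnt9 stayed below 0.46 FPKM in every sample. The family sum was 48.8 ± 6.56 FPKM in Foxo1dd and 46.8 ± 4.45 FPKM in Foxo1ff, while the B3gnt2 share of it was 37.1% ± 4.55 in Foxo1dd and 69.6% ± 3.64 in Foxo1ff (SD, n = 3 each).

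All 7 B4galt genes, which add galactose, were tested, and 3 rose and 1 fell. B4galt1, the galactosyltransferase of most N-glycans and the catalytic part of lactose synthase, had 83.0, 65.4 and 103.1 FPKM in Foxo1dd, against 25.5, 21.8 and 22.8 FPKM in Foxo1ff. The 3.59-fold rise (log2 change 1.78 ± 0.17, adjusted p = 2.78e-05) made it the most abundant B4galt gene of the Foxo1dd samples. B4galt3 held that place in Foxo1ff and fell, with 38.7, 41.4 and 41.1 FPKM in Foxo1dd, against 67.3, 61.7 and 65.6 FPKM in Foxo1ff (-0.67 ± 0.11, adjusted p = 0.000665). Of the family sum, B4galt1 took 37.5% ± 4.18 in Foxo1dd and 14.5% ± 0.0708 in Foxo1ff, and B4galt3 took 18.4% ± 2.26 in Foxo1dd and 40.2% ± 1.57 in Foxo1ff (SD, n = 3 each). The B4galt sum itself was 222 ± 26.9 FPKM in Foxo1dd and 162 ± 12.3 FPKM in Foxo1ff. B4galt6, a lactosylceramide synthase, rose by a smaller step, at 57.6 ± 9.66 FPKM in Foxo1dd and 38.9 ± 5.68 FPKM in Foxo1ff (0.55 ± 0.16, adjusted p = 0.0149). B4galt4 had 15.6 ± 1.06 FPKM in Foxo1dd and 10.8 ± 1.34 FPKM in Foxo1ff (0.50 ± 0.14, adjusted p = 0.0144). The call of B4galt6 was lost without Foxo1dd 3 or Foxo1ff 2 (adjusted p 0.00371 to 0.0701 over its alternatives), and that of B4galt4 without Foxo1ff 2 or Foxo1ff 3 (0.00474 to 0.0619). B4galt2, B4galt5 (the other lactosylceramide synthase) and B4galt7 (which acts on the linker of proteoglycan chains) were not called (adjusted p = 0.173, 0.423 and 0.477), with log2 changes of 0.33, -0.22 and -0.14.

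Only B3galt4 and B3galt6 of the 5 B3galt genes passed the minimum. B3galt6, which adds a linker galactose to proteoglycan chains, had 6.99, 5.49 and 5.86 FPKM in Foxo1dd, against 11.5, 10.2 and 10.8 FPKM in Foxo1ff (-0.73 ± 0.15, adjusted p = 0.00240). B3galt4, a ganglioside synthase, moved the other way, with 7.22, 10.7 and 8.60 FPKM in Foxo1dd, against 6.10, 5.91 and 4.92 FPKM in Foxo1ff (0.56 ± 0.18, adjusted p = 0.0229). Its call was lost without Foxo1dd 2, Foxo1ff 2 or Foxo1ff 3 and with no minimum (adjusted p 0.0140 to 0.0837 over its alternatives). B3galt1, B3galt2 and B3galt5, which make type I chains, did not exceed 0.263 FPKM in any sample.

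Sialic acid is added in different linkages by the St3gal and St6gal families. St3gal1, the sialyltransferase of the simplest galactose-bearing O-glycans, fell, with 34.1, 31.3 and 36.5 FPKM in Foxo1dd, against 88.3, 71.5 and 63.2 FPKM in Foxo1ff (-1.10 ± 0.14, adjusted p = 0.000206). St3gal4, which caps N-acetyllactosamine, rose, with 35.4, 51.7 and 28.1 FPKM in Foxo1dd, against 19.5, 14.4 and 19.6 FPKM in Foxo1ff (1.03 ± 0.22, adjusted p = 0.00338). St3gal1 therefore took 43.3% ± 7.36 of the St3gal sum in Foxo1dd and 76.5% ± 2.99 in Foxo1ff, and St3gal4 took 47.7% ± 10.1 in Foxo1dd and 18.6% ± 3.58 in Foxo1ff (SD, n = 3 each). The sum of all 6 genes was 79.3 ± 8.03 FPKM in Foxo1dd and 96.9 ± 14.3 FPKM in Foxo1ff. St3gal5, the synthase of the ganglioside GM3, had 2.15, 0.298 and 3.19 FPKM in Foxo1dd, against 0.393, 0.397 and 0.350 FPKM in Foxo1ff. Foxo1dd 2 lay below the Foxo1ff range and the other Foxo1dd samples far above it, so the gene was not called (0.90 ± 0.38, adjusted p = 0.0724). Without Foxo1dd 2 it was called at 1.39 (adjusted p = 0.000592), and it also passed under quantile normalization, over a range of 0.000592 to 0.145. St3gal2 and St3gal3 were not called, with 1.71 ± 0.685 and 3.12 ± 0.204 FPKM in Foxo1dd and 1.43 ± 0.236 and 2.69 ± 0.599 FPKM in Foxo1ff (SD, n = 3 each; adjusted p = 0.679 and 0.449). The sign of the St3gal2 change turned without Foxo1dd 1 (-0.01), and St3gal6 lay below the minimum at up to 0.703 FPKM.

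All 3 tested genes of the St6gal group rose, but St6gal1 and St6galnac5 reached the minimum only through Foxo1dd, so their direction was favoured by the filter. St6galnac2, which puts sialic acid on the GalNAc of O-glycans, was the most abundant, with 70.9, 65.3 and 81.0 FPKM in Foxo1dd, against 33.9, 29.1 and 32.5 FPKM in Foxo1ff (1.16 ± 0.13, adjusted p = 6.52e-05). St6galnac5, a ganglioside sialyltransferase, had 5.54, 4.55 and 5.07 FPKM in Foxo1dd, against 0.976, 0.406 and 0.327 FPKM in Foxo1ff (1.97 ± 0.21, adjusted p = 5.15e-05). St6gal1, which caps N-glycans, had 3.78, 4.65 and 4.39 FPKM in Foxo1dd, against 0.529, 0.373 and 0.700 FPKM in Foxo1ff (1.78 ± 0.18, adjusted p = 4.22e-05). The groups of each were apart, and the 8.86-fold and 8.00-fold higher means of St6galnac5 and St6gal1 start from low Foxo1ff levels. St6galnac1, the sialyl-Tn synthase, had 1.32, 1.51 and 1.80 FPKM in Foxo1dd, against 0, 0 and 0.0200 FPKM in Foxo1ff. St6gal2 had 1.11, 0.837 and 2.41 FPKM in Foxo1dd, against 0.288, 0.138 and 0.0430 FPKM in Foxo1ff. Both lay under the minimum of the test, and both were called with no minimum (adjusted p = 0.000180 and 0.0161, log2 changes 1.33 and 1.04). St6galnac3, St6galnac4 and St6galnac6 overlapped between groups at 0.045 to 0.849 FPKM. The St6gal sum was 85.4 ± 8.68 FPKM in Foxo1dd and 34.0 ± 2.92 FPKM in Foxo1ff (SD, n = 3 each), mostly St6galnac2.

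**Figure D3:**
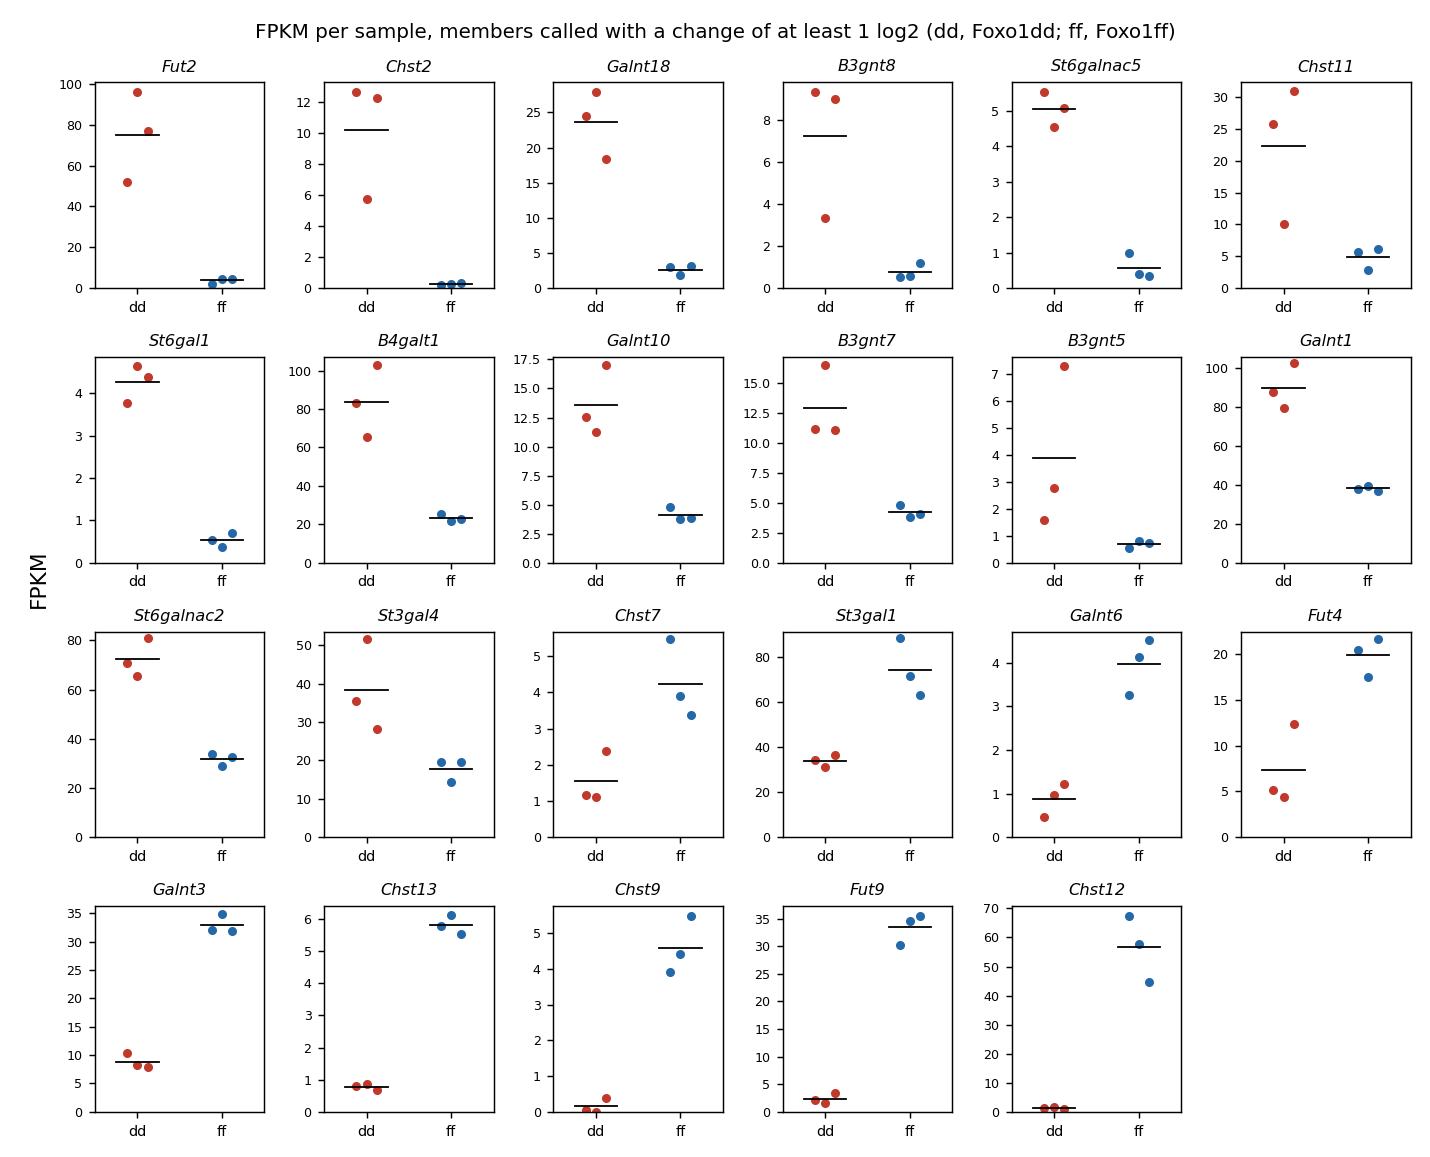
FPKM per sample (y axis, from 0) of the 23 transferases called with a change of at least 1 log2, ordered from the largest rise to the largest fall; dots are samples, lines are means, dd is Foxo1dd and ff is Foxo1ff. The dots of the genotypes do not overlap in any panel, and Foxo1dd 2, the middle dot of its group, is the low dot for Chst2, B3gnt8 and Chst11.

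The fucosyltransferase with the highest level differed between the genotypes. Fut2, the secretor enzyme that makes the H antigen (chromosome 7, 45648591 to 45666394, minus strand, mm10), had 51.8, 96.1 and 77.0 FPKM in Foxo1dd, against 2.02, 4.59 and 4.58 FPKM in Foxo1ff. Its log2 change of 4.02 ± 0.29 (adjusted p = 5.80e-06) was the largest rise of the 45 transferases on the log2(FPKM + 1) scale, while by the ratio of means, 20.1-fold, and with a pseudocount of 0.1 Chst2 rose more. Fut9, which makes the Lewis x structure (chromosome 4, 25609332 to 25800244, minus strand), had 2.11, 1.53 and 3.44 FPKM in Foxo1dd, against 30.1, 34.6 and 35.5 FPKM in Foxo1ff, a 14.2-fold lower mean (-3.39 ± 0.21, adjusted p = 2.45e-06). Fut4, a second Lewis x enzyme, had 5.15, 4.41 and 12.4 FPKM in Foxo1dd, against 20.5, 17.5 and 21.6 FPKM in Foxo1ff (-1.44 ± 0.30, adjusted p = 0.00324). No Foxo1dd value of these 3 genes lay within the Foxo1ff range. Fut4 lies 5.78 Mb from Pgr on chromosome 9, the chromosome with the Cre insertion, which also holds St3gal4 and Chst2 at 26.1 and 86.4 Mb, and the part of that linkage was not tested.

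Fut2 took 70.9% ± 9.15 of the summed Fut FPKM in Foxo1dd and 4.45% ± 1.71 in Foxo1ff. Fut9 and Fut4 together made up most of the sum in Foxo1ff, at 40.0% ± 2.65 and 23.8% ± 2.57, against 2.31% ± 0.916 and 7.01% ± 3.72 in Foxo1dd (SD, n = 3 each). The sums were 104 ± 19.5 FPKM in Foxo1dd and 83.4 ± 1.76 FPKM in Foxo1ff. Fut8, the core fucosyltransferase of N-glycans, had 9.18, 6.2 and 7.67 FPKM in Foxo1dd, against 9.99, 11.1 and 9.40 FPKM in Foxo1ff, and Fut11, a distant relative, had 13.4, 10.3 and 11.5 FPKM in Foxo1dd, against 18.4, 15.5 and 13.4 FPKM in Foxo1ff. Neither was called (-0.37 ± 0.17 and -0.39 ± 0.16, adjusted p = 0.0842 and 0.0647), although the Fut8 samples did not overlap. Both passed without Foxo1dd 1 (adjusted p = 0.0407 and 0.050, ranges 0.0407 to 0.252 and 0.0473 to 0.204), and Fut11 also without Foxo1ff 3 (adjusted p = 0.0473). Fut1, the other H antigen enzyme, which also lies on chromosome 7 (45617289 to 45621059, plus strand), had 0.030, 0.136 and 0 FPKM in Foxo1dd, against 0.0350, 0.0470 and 0.0280 FPKM in Foxo1ff. It thus did not exceed 0.136 FPKM in any sample, with overlapping groups. Fut7, which makes sialyl Lewis x, Fut10 and the pseudogene Fut4-ps1 did not exceed 0.557 FPKM.

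**Figure D4:**
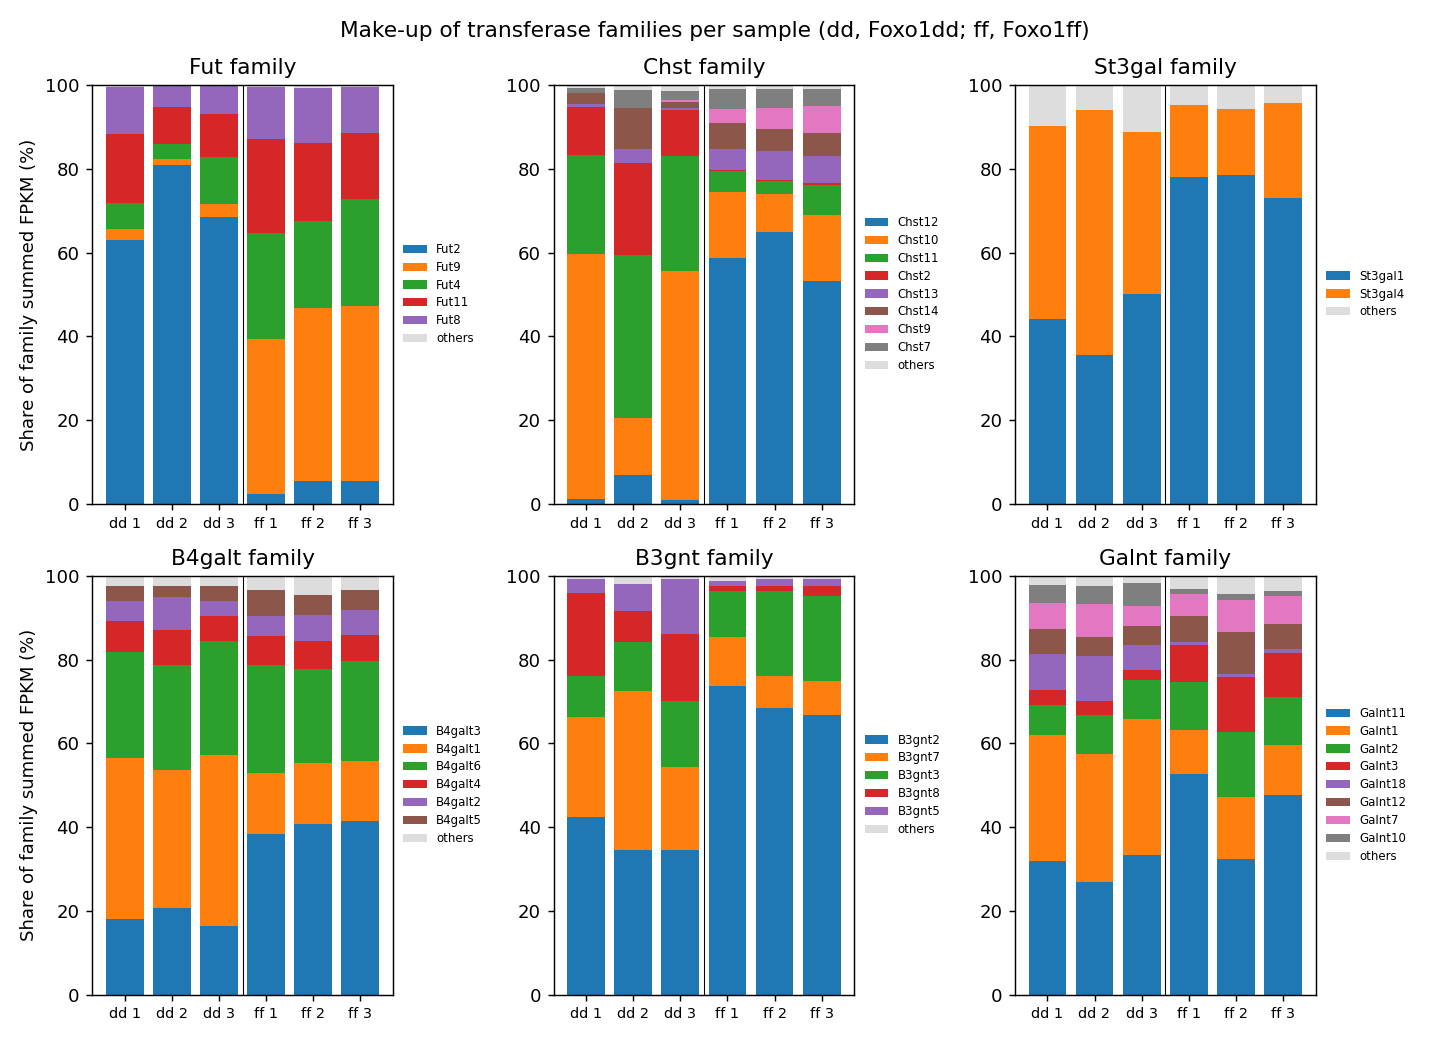
Share of each family's summed FPKM (y axis, %) taken by its members in each sample (x axis, dd is Foxo1dd and ff is Foxo1ff) for 6 families; members under 4% in both genotypes are pooled as others. Fut2 fills 63.1% to 81.0% of the Fut bars in Foxo1dd and 2.47% to 5.47% in Foxo1ff, and Chst12 fills 1.00% to 7.03% of the Chst bars in Foxo1dd and 53.3% to 64.8% in Foxo1ff.

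Of the 8 tested Chst genes, 2 rose and 5 fell, and Chst2 reached the minimum only through Foxo1dd, Chst9 and Chst13 only through Foxo1ff. Chst12, a chondroitin sulfotransferase that was the most abundant Chst gene of the Foxo1ff samples (chromosome 5, 140505550 to 140525724, plus strand, mm10), had 1.32, 1.83 and 1.1 FPKM in Foxo1dd, against 67.4, 57.8 and 44.7 FPKM in Foxo1ff. The 39.8-fold lower mean (-4.56 ± 0.19, adjusted p = 3.66e-07) was the largest fall of the 45 transferases. Chst13, another enzyme of the same reaction, had 0.816, 0.852 and 0.670 FPKM in Foxo1dd, against 5.78, 6.13 and 5.53 FPKM in Foxo1ff (-1.94 ± 0.16, adjusted p = 1.36e-05). Chst11, the remaining chondroitin enzyme of that reaction, rose instead, with 25.8, 10.1 and 31.0 FPKM in Foxo1dd, against 5.59, 2.82 and 6.09 FPKM in Foxo1ff (1.91 ± 0.39, adjusted p = 0.00262). The order of Chst11 and Chst12 levels was thus turned round between the genotypes in every sample.

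Chst2, which sulfates GlcNAc on N- and O-glycans, had 12.6, 5.72 and 12.2 FPKM in Foxo1dd, against 0.208, 0.240 and 0.310 FPKM in Foxo1ff, a 40.3-fold higher mean (3.09 ± 0.27, adjusted p = 1.88e-05). Chst9, which sulfates terminal GalNAc, had 0.0570, 0 and 0.395 FPKM in Foxo1dd, against 3.92, 4.41 and 5.48 FPKM in Foxo1ff (-2.29 ± 0.21, adjusted p = 2.38e-05). Chst7, a chondroitin enzyme acting at another carbon, had 1.18, 1.11 and 2.39 FPKM in Foxo1dd, against 5.46, 3.90 and 3.37 FPKM in Foxo1ff (-1.05 ± 0.24, adjusted p = 0.00526). The genotypes were apart for each of these genes. Chst14, the dermatan sulfotransferase, also fell, at 2.39 ± 0.730 FPKM in Foxo1dd and 5.49 ± 1.38 FPKM in Foxo1ff (SD, n = 3 each; -0.94 ± 0.23, adjusted p = 0.00646). Chst10, which makes the HNK-1 epitope, split the Foxo1dd group. It had 64.4, 3.54 and 61.3 FPKM in Foxo1dd, against 18, 8.08 and 13.1 FPKM in Foxo1ff, so Foxo1dd 2 lay below and the other Foxo1dd samples above all Foxo1ff samples. The gene was not called (0.97 ± 0.88, adjusted p = 0.373) but passed without Foxo1dd 2 at 2.25 (adjusted p = 0.000189, range over its alternatives 0.000189 to 0.799). Of the other 6 members, Chst4 and Chst5 were listed at 0 in all samples, Chst1, Chst3 and Chst15 did not exceed 0.405 FPKM, and Chst8 ranged from 0 to 1.24 FPKM with overlapping groups. With no minimum, 6 untested members of all families were called, St6gal2, St6galnac1 and Chst1 higher and Galnt15, Galntl6 and Chst15 lower.

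Foxo1dd 2 differed from the other Foxo1dd samples in several members at once. It lay below 0.5 times both other Foxo1dd values for 7 of the 45 transferases, namely B3gnt8, St3gal2, St3gal5, Chst2, Chst9, Chst10 and Chst11, and above 2 times both for 0. Over all tested genes it lay so low for 4.33%, while each of the other 5 samples lay so low, within its own group, for 0.411% to 1.16%. On the high side, Foxo1dd 3 lay above 2 times both other Foxo1dd values for 4 of the 45 (B3gnt5, Fut4, Chst7 and Chst9). That is 8.89%, beside 1.63% of all tested genes. The glandular marker sum of Foxo1dd 2 was the lowest of all samples, at 1.04 FPKM, and its Rn45s level was the highest, and the part of these in its low values was not tested. Without this sample 18 transferases rose and 14 fell, against 17 and 16 with it. Over all tested genes 2714 were then called higher and 3685 lower, against 2533 and 3912 with it.

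Enzymes that act beside the 8 families also moved both ways, and 22.2% of all tested genes were called higher and 34.2% lower. Among the other O-glycan core and branching enzymes, 3 of 7 tested rose and 3 fell. Without Foxo1ff 1 or without Foxo1ff 2 only 1 was called lower, in part because Gcnt4 then lay below the minimum and was not tested. Gcnt3, a mucin branching enzyme, had 61.9 ± 10.4 FPKM in Foxo1dd and 4.12 ± 2.71 FPKM in Foxo1ff, and Gcnt2, which branches poly-N-acetyllactosamine into the I antigen, had 86.4 ± 12.9 FPKM in Foxo1dd and 42.1 ± 8.30 FPKM in Foxo1ff (SD, n = 3 each). Gcnt4 and the chaperone C1galt1c1, needed to extend mucin O-glycans, fell by 1.56 and 0.69 log2. Of 5 tested N-glycan branching enzymes, 0 rose and 4 fell: Mgat4a had 4.78 ± 2.18 FPKM in Foxo1dd and 70.1 ± 8.20 FPKM in Foxo1ff, and Mgat2, Mgat1 and Mgat4b had log2 changes of -1.65, -1.40 and -0.84 (SD, n = 3 each; adjusted p at most 0.000187). Among 6 other terminal transferases 3 rose and 2 fell. A4galt, which makes globo-series glycolipids, Ggta1, which adds the alpha-galactose cap absent from humans, and the ganglioside enzyme St8sia5 had 140 ± 22.6, 25.9 ± 12.1 and 10.7 ± 3.66 FPKM in Foxo1dd, against 13.3 ± 3.37, 0.678 ± 0.330 and 0.0737 ± 0.104 FPKM in Foxo1ff. B4galnt4 fell by 3.25 log2 (limma adjusted p = 2.10e-06). Ggta1 and St8sia5 reached the minimum only through Foxo1dd, and B4galnt4 and Gcnt4 only through Foxo1ff, so their direction was favoured by the filter.

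Transcripts for the synthesis and transport of sugar and sulfate donors fell more often than they rose in each list. In the order given here, the list medians were -1.06, -1.27, -0.55 and -0.32 log2, beside -0.15 for all tested genes. Of all tested genes, 22.2% were called higher and 34.2% lower. Of 6 hexosamine pathway genes, which make UDP-GlcNAc, 1 rose and 5 fell, with log2 changes of -1.94, -1.32, -1.12 and -0.69 for Uap1l1, Pgm3, Uap1 and Gnpnat1. Of 5 tested genes around the sulfate donor, not all of them synthesis genes, 0 rose and 4 fell, and 1 rose without Foxo1dd 2. Bpnt1, which clears a by-product of sulfate transfer, had 32.4 ± 6.09 FPKM in Foxo1dd and 214 ± 56.7 FPKM in Foxo1ff (SD, n = 3 each). Papss1, a synthase of the donor PAPS, had 21.9 ± 2.13 FPKM in Foxo1dd and 54.5 ± 9.36 FPKM in Foxo1ff, and Papss2 lay below the minimum. Slc26a1 and Impad1 fell by 2.1 and 0.67 log2, and Slc26a1 reached the minimum only through Foxo1ff, so its direction was favoured by the filter. Of 13 tested genes for sialic acid, fucose and galactose donors, 3 rose and 7 fell: the sialic acid genes Cmas and Nans had log2 changes of -1.10 and -1.04, while Fuk (fucose kinase) and Ugp2 had 2.58 and 1.20. Of 13 genes of the Slc35a to Slc35d groups, which include carriers of nucleotide sugars and of the sulfate donor, 3 rose and 6 fell. Slc35c1, the GDP-fucose carrier, had 17.9 ± 2.21 FPKM in Foxo1dd and 41.7 ± 0.991 FPKM in Foxo1ff (SD, n = 3 each, limma adjusted p = 6.26e-05). Slc35b1, Slc35c2 and Slc35b4 had log2 changes of -1.30, -1.04 and -1.02. Of the other fucose donor genes, Fpgt fell (log2 change -0.58, limma adjusted p = 0.00807), and Gmds and Tsta3 were not called (0.433 and 0.218). Fut2 and Fuk thus rose while Fpgt and the GDP-fucose carrier fell.

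Enzymes of proteoglycan chains outside the families gave 2 rises and 7 falls among 21 tested, or 4 rises under median-of-ratios scaling, under quantile normalization or without Foxo1dd 2. Beside this and the following counts, 22.2% of all tested genes were called higher and 34.2% lower. Chpf, which lengthens chondroitin, and Ust, which sulfates its uronic acid, fell by 2.35 and 3.40 log2, Dsel fell by 1.11 and its paralog Dse, a dermatan epimerase, rose by 1.56. Of 16 tested glycan-removing enzymes 5 rose and 5 fell, with a list median log2 change of 0.10. Arsb, Glb1 and the lysosomal sialidase Neu1, at -2.62, -1.18 and -1.06, were on the falling side, and the rises are not named here. Of 10 tested mucins and surface carriers 2 rose and 5 fell, among them the transmembrane mucin Muc1 at 1.45 and Cd164, Podxl and Sdc1 at -1.08, -1.40 and -0.96 log2. Of 4 galectins, which bind these glycans, 2 rose: Lgals9 had 75 ± 13.0 FPKM in Foxo1dd and 4.95 ± 1.34 FPKM in Foxo1ff, and Lgals8 rose by 0.65 log2 (SD, n = 3 each; adjusted p = 1.31e-06 and 0.00354). Lgals1 and Lgals3 were not called (adjusted p = 0.443 and 0.729), and the sign of Lgals3 turned without Foxo1dd 2, Foxo1dd 3 or Foxo1ff 1.

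**Figure D5:**
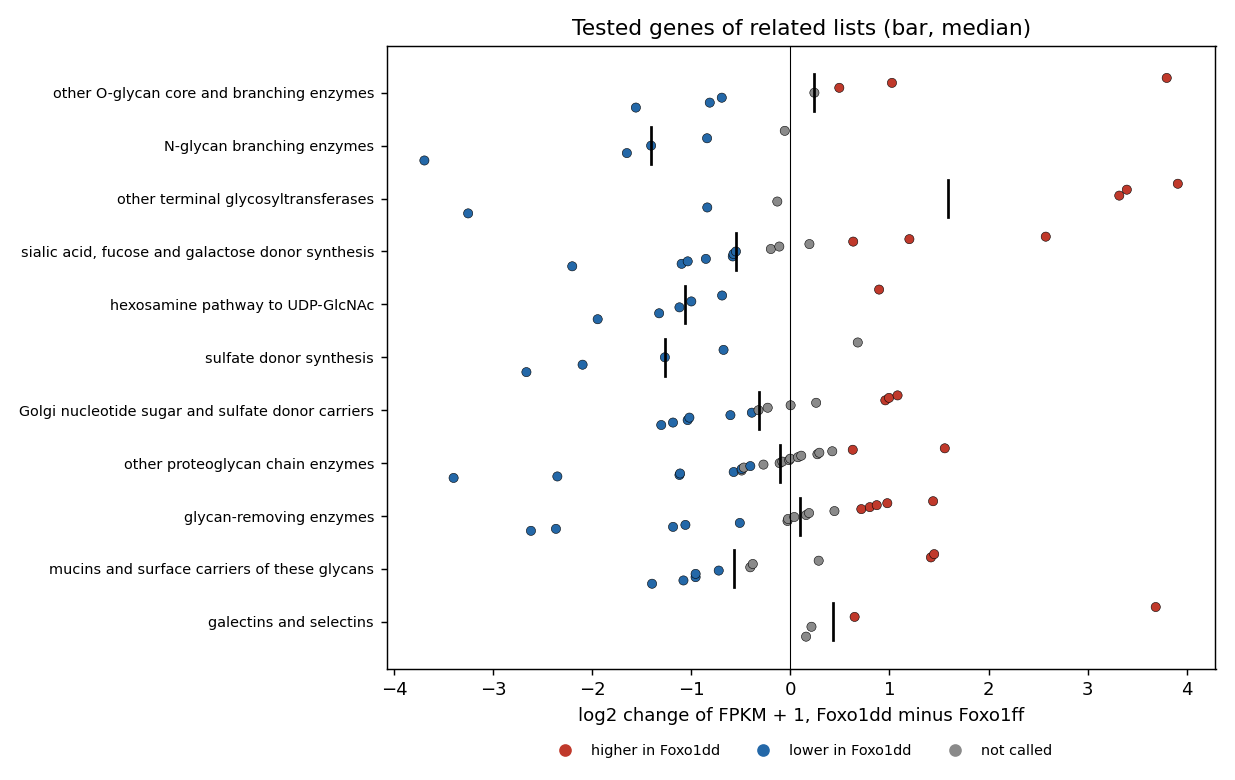
Log2 change of FPKM + 1 (x axis, Foxo1dd minus Foxo1ff) of the tested genes of 11 related lists; points are genes coloured by call, and black bars are list medians. The N-glycan branching, hexosamine and sulfate donor lists have medians of -1.40, -1.06 and -1.27, below the median of -0.15 of all tested genes.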

How the data were processed

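RNA-seq libraries of 3 Foxo1dd and 3 Foxo1ff laser-captured samples were compared. The authors deposited 1 FPKM value per gene and sample, and column names matched the sample titles. The submitters' processing notes list DESeq2 1.12.4, edgeR 3.28.0, STAR 2.5.2b and featureCounts 1.5.0-p1 (Subread) with build mm10, without saying what each was used for. Annotation, gene lengths, strand setting and any scaling were stated in no source used here.

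A minimum mean of 1 FPKM left 11427 genes to test and 13537 not. Their log2(FPKM + 1) values went into 1 model of genotype (limma 3.58.1 under R 4.3.3; lmFit, eBayes with a trend), with Benjamini-Hochberg adjustment over all tested genes, and genes were called below an adjusted p of 0.05. Each log2 change (Foxo1dd minus Foxo1ff) has limma's SE and can understate the change of low genes; folds are ratios of mean FPKM. An exact permutation test of 3 against 3 cannot go below p = 0.1. The procedure was tested on simulated data.

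The members and lists were chosen with earlier results of these data known. Per-sample values are given for members called with at least 1 log2 and for each family's most abundant member, with others where a range or a small count names them. Of related lists, up to 4 genes with the smallest p are named, and the remaining fucose donor genes. Of the tested members, 29 share no exon with another gene in GENCODE M21 (GRCm38), and 4 (Galnt2, Galnt4, B3gnt2, B4galt2) overlap exons on the same strand. Exons on the other strand are overlapped by 15 (Galnt2, Galnt6, Galnt7, Galnt11, B3gnt2, B3gnt7, B3gnt8, B4galt2, B4galt3, B4galt7, St3gal4, St6gal1, St6galnac2, St6galnac5, Fut8). The values of all these overlapping genes are uncertain. Depth was read as the largest step at which at least 80% of values under 12 reads of short RNA genes were whole to within 0.05 read.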

Additional observations from a re-analysis of the deposited data

How the results depend on the processing

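Of the 45 tested transferases, 34 had the same sign and the same call under every alternative that tested them, including all 23 called with at least 1 log2. The numbers that rose and fell were 17 and 15 under median-of-ratios scaling, 18 and 15 under quantile normalization, 19 and 17 with no minimum, 13 and 11 at a minimum of 5 FPKM, 17 and 16 with pseudocounts of 0.1 and 0.5 or without a trend, and 14 to 18 and 14 to 18 with a sample left out. Median-of-ratios scaling moved the median of all tested genes to -0.03 and called 3072 genes higher and 3431 lower. The labels state no pairing by bioreplicate number. Deviations of same-numbered samples correlated at 0.12, 0.11 and -0.13, and those of differently numbered samples at -0.21 to 0.15. With 3 samples per genotype these values neither show nor exclude pairing. With a replicate block 18 transferases rose and 16 fell: Galnt11 and St3gal5 were then called (adjusted p = 0.0116 and 0.0441, limma) and Galnt4 was not (0.0645).

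Family counts moved as follows, and the cause was not tested except where fewer or more genes were tested by construction. At a minimum of 5 FPKM, 1 B3gnt and 1 St6gal gene rose and 1 Chst gene fell. With no minimum, 0 B3galt and 5 St6gal genes rose. Under quantile normalization and with a replicate block, 2 St3gal genes rose. Leaving out a sample gave 1 to 3 B4galt, 0 to 1 B3galt and 1 to 2 St3gal rises, and 3 to 5 Galnt and 2 to 4 Fut falls. With a sample left out, the log2 change of St3gal2 ran from -0.0073 (without Foxo1dd 1) to 0.35 and that of Lgals3 from -0.13 to 0.61, below 0 without Foxo1dd 2, Foxo1dd 3 or Foxo1ff 1; neither was called in these. With 3 samples per genotype and 1 read of a 2 kb gene worth up to 0.0068 FPKM, members listed at 0 are below detection, not shown to be silent.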
